A study of Argopecten irradians concentricus with 9 samples.

Results

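The actin-based filaments of scallop muscle, and the proteins that anchor, cap and turn them over, were followed in the shell-closing adductor muscle of a bay scallop, Argopecten irradians concentricus. Gene models were taken into the set when their Swiss-Prot protein name began with Actin, or contained tropomyosin, troponin, tropomodulin, calponin, gelsolin, alpha-actinin, filamin, nebulin, cofilin or profilin. That gave 79 of the 28864 gene models in the table, 14302 of which carry such a name. The animals were 1 year old, and the muscle was taken from scallops held at room, high or low water temperature, 3 libraries each. Neither the degrees nor the length of exposure is stated in the labels, which give the groups no other difference. RNA is described per tank, without a statement that libraries are different animals, so p-values here cover library-to-library spread alone, which may be technical.

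In a muscle sarcomere the thin filament is a polymer of actin on which tropomyosin and the troponin complex lie, and calcium bound by troponin C relieves the inhibition exerted by troponin I. The barbed ends of thin filaments are held at the Z-disc, where alpha-actinin cross-links them, and their pointed ends are capped by tropomodulin. Cofilin, actin-interacting protein 1, gelsolin and profilin disassemble, sever or resupply actin filaments in most cell types. Scallop adductor is a classical preparation for contraction switched on through calcium binding to myosin itself, with its regulatory and essential light chains, and its striated portion also holds troponin and tropomyosin.

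None of the 31 gene models in the set abundant enough to test passed after adjustment over all genes, in any of the 3 comparisons. The lowest adjusted p-values in limma were 0.31 for a cofilin and 0.367 for a gelsolin-like protein, both between high and low temperature, and 0.404 for actin-interacting protein 1 between low and room temperature. The other cofilin and the other tested gelsolin-like proteins had higher ones. Actin-interacting protein 1 was at 16.6 ± 4.46 FPKM at low temperature and 28.7 ± 3.47 at room temperature, and a cofilin was at 191 ± 19.6 FPKM at low temperature, 275 ± 23.8 at room and 302 ± 7.55 at high temperature (mean ± SD, n = 3 each). A gelsolin-like protein and an actin named Actin-2 had their lowest means at high temperature, but the other tested models of these names did not. Adductor muscle actin, which alone made up 57.3 to 74.7% of the set's FPKM in a library, varied more between libraries of a group than between groups.

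FPKM are reads scaled by gene model length and by a library factor. Assigned reads ranged from 11716140 to 16229040 per library, and the set took 11.04 to 14.37% of them. High temperature replicate 3 stood apart from the rest, with an FPKM sum of 1157874 against 492312 to 864235 in the other libraries, and changes at high temperature that it moved most among the named models are given with and without it. The adductor markers were found by the names of myosin regulatory and essential light chains, paramyosin, striated muscle myosin heavy chain and twitchin. Arginine kinase and sarcoplasmic calcium-binding protein were also searched, so the list is not of filament proteins alone. These markers (2 of 13 models at 0 in every library) summed to between 59831 and 168665 FPKM. Markers of other tissues were low in comparison, but the summed FPKM of some lists did not overlap between groups. The cilia list (11 of 89 models at 0 in every library) was at 60.8 to 68.8 FPKM at room, 49.9 to 58.4 at low and 47.9 to 60.2 at high temperature, so that room temperature lay above both other groups. The gonad list (3 of 12 at 0) was at 12.2 to 18.2 FPKM at room, 8.73 to 16.2 at low and 8.41 to 9.86 at high temperature, so that high lay below room temperature. The digestive gland list (10 of 34 at 0) was at 17.8 to 21.2 FPKM at room, 23.7 to 35.4 at low and 18.4 to 21.9 at high temperature, so that low lay above both other groups. As percentages of the library FPKM sum, the groups of these lists overlapped. Cilia markers were at 0.0104% in low temperature replicate 1, against 0.00796 to 0.00912% at room temperature. Gonad markers were at 0.00192% in high temperature replicate 1 and 0.00184% in room temperature replicate 1. Digestive gland markers were at 0.00275% in low temperature replicate 3 and 0.00276% in room temperature replicate 1. The part of these markers in the differences below was not tested. The nerve list (7 of 35 at 0) was at 22.2 to 35.3 FPKM, with overlapping groups. The blood cell list, with 2 of 7 models at 0 in every library, ranged from 96.5 to 824 FPKM, and its groups overlapped. Of the smooth catch muscle list only a twitchin was found, at 0 in 8 libraries and at 0.166 FPKM in high temperature replicate 1, whereas the most abundant adductor marker bears the name of a myosin regulatory light chain A of smooth adductor muscle, so these names do not separate smooth from striated adductor.

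Of the 79 gene models, 70 had a read in some library and 9 had none. A further 39 had reads but a mean below 1 FPKM over the 9 libraries, the minimum for testing, and 31 were tested. Just inside that minimum stood a cytoplasmic actin at a mean of 1.96 FPKM, and just outside it Actin-11 at 0.984. By name the set held 33 actins (6 tested), 14 actin-related proteins (8 tested), 6 gelsolin-like proteins (3 tested), 5 troponins (2 tested), 5 filamins (2 tested), 4 profilins (2 tested), 3 alpha-actinin names (1 tested), 3 calponin names (2 tested), 2 cofilins (both tested), 1 tropomodulin (tested) and 3 other names beginning with Actin (2 tested). No gene model was named tropomyosin or nebulin. A name here is the best protein match recorded in the table, so it records a likeness to a known protein, often from a distant animal. Of the tested models, 6 had a mean of at least 1000 FPKM, 5 lay between 100 and 1000, 13 between 10 and 100 and 7 between 1 and 10.

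**Figure D1:**
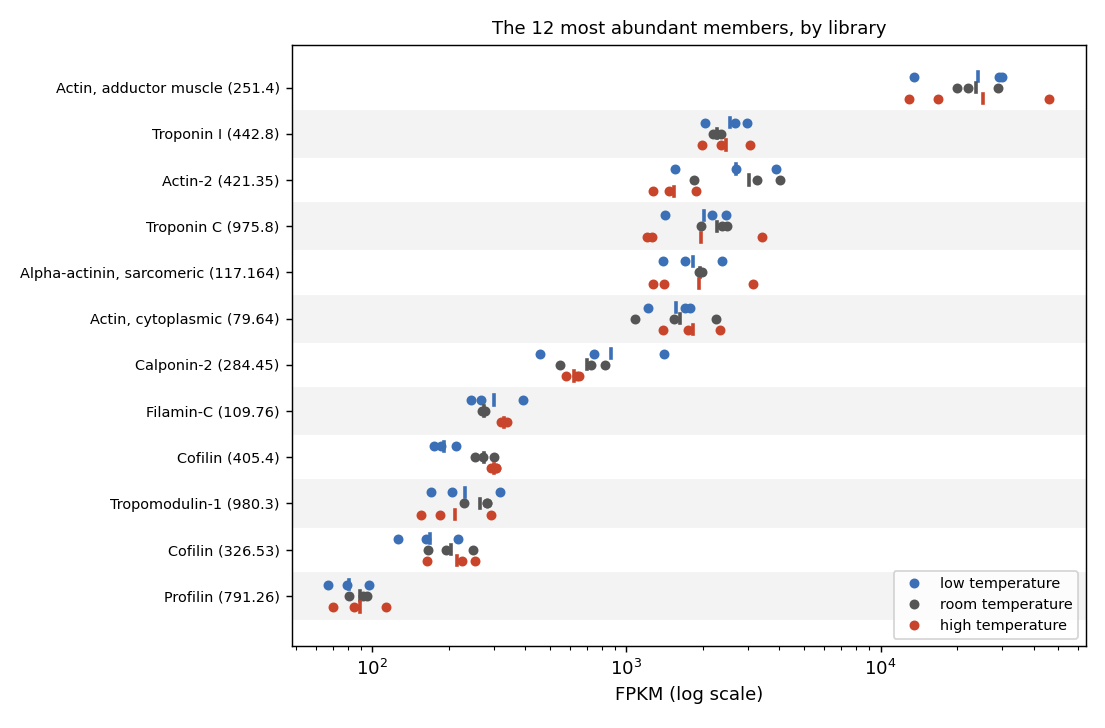
FPKM on a log axis of the 12 most abundant gene models of the set in each of the 9 libraries, coloured by water temperature, with a vertical bar at each group mean. The groups overlap in most rows, while the cofilin of Contig405 has all 3 low temperature libraries, at 175 to 213 FPKM, below the other 6, at 253 to 308.

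Adductor muscle actin (evm.TU.Contig251.4, Contig251 positions 86768 to 92343, minus strand), the actin of the contractile apparatus, was the most abundant of the set and the second of all gene models in the table. It stood at 20055, 22151 and 29050 FPKM in room temperature libraries 1 to 3, at 13527, 29143 and 30100 at low temperature and at 12877, 16854 and 46141 at high temperature. The highest and the lowest of the 9 values both belonged to the high temperature group, and all 3 groups overlapped. The log2 change on the FPKM + 1 scale was -0.04 (SE 0.512) for low minus room temperature and -0.12 (SE 0.512) for high minus room temperature, with limma adjusted p-values of 0.988 and 0.965. The interval of the second, from -1.25 to 1.01 at 95%, does not bound the change within 2-fold in either direction. Without high temperature replicate 3 it was -0.67 (SE 0.375, limma adjusted p = 0.534).

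As a share of each library's FPKM sum, adductor muscle actin came to 3.01, 3.07 and 3.36% at room, 2.75, 3.7 and 3.49% at low and 2.57, 2.82 and 3.98% at high temperature. The order of the libraries was nearly the same on this scale and the range between them narrower. High temperature replicate 3 remained the highest. In bulk tissue, fewer muscle fibres and less RNA of a gene per fibre cannot be told apart.

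**Figure D2:**
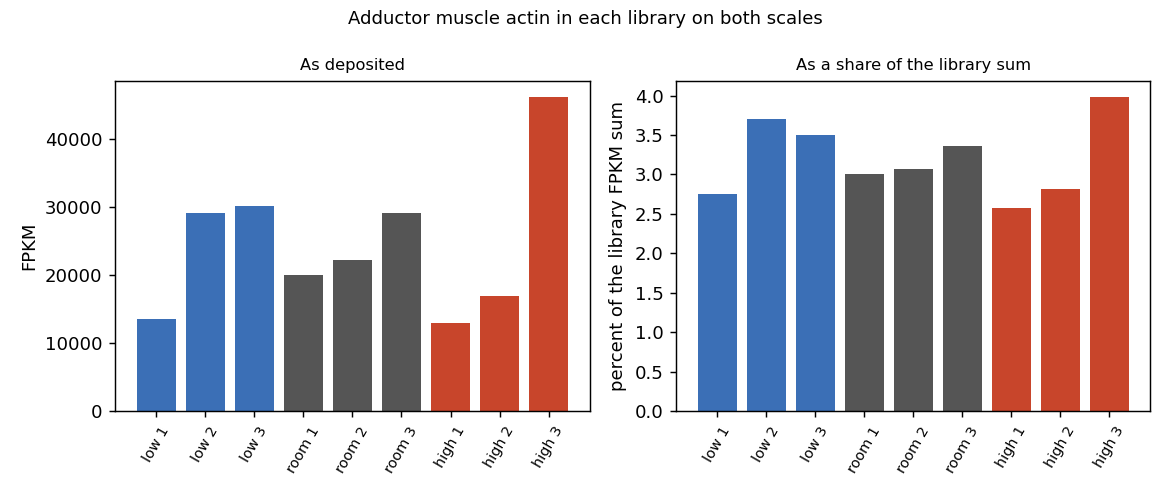
Adductor muscle actin in each library, as deposited FPKM on the left and as a percentage of the library's FPKM sum on the right, both from 0. High temperature replicate 3 is the tallest bar on both scales, at 46141 FPKM and 3.98%, and stands less far above the others on the right.

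Actin-2 (evm.TU.Contig421.35, Contig421 positions 594386 to 604759, minus strand), was a second abundant actin. Its values were 3262, 1838 and 4021 FPKM at room temperature, 1550, 3861 and 2710 at low temperature and 1466, 1883 and 1273 at high temperature. The lowest values, 1273 and 1466, were at high temperature. The highest of that group, at 1883, lay above the lowest room temperature value, 1838, and the lowest low temperature value, 1550. High minus room temperature was -0.93 log2 (SE 0.417), with an unadjusted limma p of 0.0486 and an adjusted p of 0.52. It was -0.80 (SE 0.438, limma adjusted p = 0.53) without high temperature replicate 3. Per 100 FPKM of adductor muscle actin, Actin-2 stood at 2.76 in high temperature replicate 3 and between 8.3 and 16.3 in the other 8 libraries. That library had the most adductor actin and the least Actin-2 of all 9, and in the other 8 libraries the ratio overlapped between the groups.

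The third abundant actin was named cytoplasmic actin (evm.TU.Contig79.64), the form that builds the cytoskeleton in non-muscle cells. It stood at 1538, 1084 and 2244 FPKM at room, 1216, 1701 and 1775 at low and 1386, 1742 and 2339 at high temperature. The groups overlapped, and no comparison came near the threshold (limma adjusted p = 0.888 or above). A minor cytoplasmic actin (evm.TU.Contig280.102), at a mean of only 1.96 FPKM and 288 reads in all, had its 3 high temperature values of 2.41, 2.46 and 2.74 FPKM above the room temperature values of 1.96, 1.26 and 1.05 (log2 0.56, SE 0.267, limma adjusted p = 0.54). It is one of 5 tested gene models singled out after their values were seen.

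The remaining actin models held few reads. The other tested actins were a second Actin-2 (evm.TU.Contig421.28), at 5.83 to 38.1 FPKM, and Actin-18 (evm.TU.Contig412.52), at 0.262 to 5.42 FPKM. Unlike the abundant Actin-2, the second had its highest mean at high temperature, with high minus room at 0.42 log2 (SE 0.615, limma adjusted p = 0.87). Below the minimum, Actin, cytoplasmic 1 (evm.TU.Contig361.28) had 94 reads in all and reached 5.30 FPKM in a single library, high temperature replicate 3. Many of these models lie in clusters on a contig. Contig360 holds 6 actins within 93.2 kb with 2 to 20 reads each over all libraries, Contig58 holds 4 within 16.5 kb with 47 to 91 reads, and Contig3184 holds 4 within 17.6 kb with 0 to 2 reads. Contig421 holds 5 within 97.2 kb, from the abundant Actin-2 with 833238 reads to an Actin-1 with none. Actin coding sequences are highly alike, so the assignment of reads to these models is uncertain, and a model without reads may share its sequence with one that has them.

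**Figure D3:**
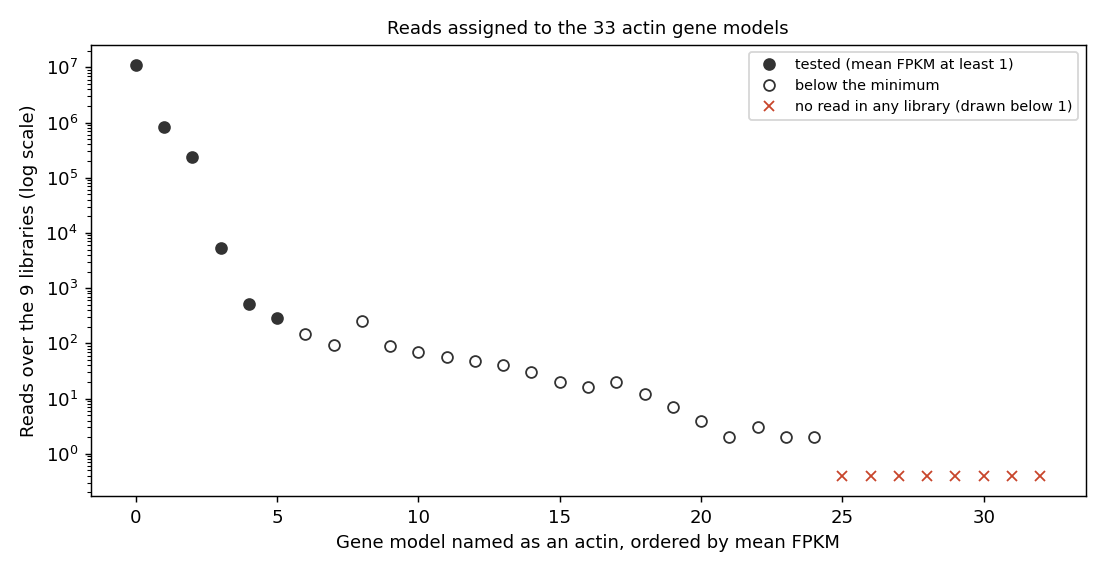
Reads over the 9 libraries, on a log axis, of the 33 gene models named as actins, ordered by mean FPKM. Filled points passed the minimum for testing, open points did not, and the crosses are 8 models with no read. The first model, adductor muscle actin, holds 10947131 reads.

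Troponin I (evm.TU.Contig442.8, Contig442 positions 281676 to 334553, plus strand), the inhibitory subunit, was among the steadiest abundant models. It was at 2347, 2280 and 2189 FPKM at room temperature, 2032, 2679 and 2984 at low and 1983, 2347 and 3066 at high temperature. The room temperature values lay inside the range of both other groups. Its log2 changes were 0.16 (SE 0.301) for low minus room and 0.10 (SE 0.301) for high minus room temperature, with limma adjusted p-values of 0.938 and 0.952, and both 95% intervals lay within a 2-fold change.

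Troponin C (evm.TU.Contig975.8), the calcium-binding subunit, was at 1966, 2375 and 2480 FPKM at room, 1421, 2465 and 2163 at low and 1266, 1204 and 3414 at high temperature. High temperature replicate 3 held the highest value of all and the other 2 high temperature libraries the lowest. High minus room temperature was -0.38 log2 (SE 0.424, limma adjusted p = 0.815) with all libraries, and -0.87 (SE 0.293, limma adjusted p = 0.367) without that replicate. The ratio of troponin I to troponin C in FPKM was 0.883 to 1.19 at room, 1.09 to 1.43 at low and 0.898 to 1.95 at high temperature. The 3 other troponin models, all named as forms of troponin C, had 27, 1 and 0 reads over the 9 libraries.

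Abundant gene models with a tropomyosin or troponin domain but no protein name lay outside the set. The domain record does not say which protein each of them encodes. A gene model with only a tropomyosin domain recorded (evm.TU.Contig408.58) had a mean of 9481 FPKM, and one with only a troponin domain (evm.TU.Contig243.9) had a mean of 14775 FPKM, above every member other than adductor muscle actin. The tropomyosin-domain model ranged from 9068 to 10038 FPKM at room, 6976 to 11077 at low and 6818 to 16697 at high temperature, and the troponin-domain model from 11957 to 15514, 10009 to 19647 and 9696 to 22849. The groups of each overlapped, and the limma adjusted p was 0.943 or above in every comparison of both.

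Sarcomeric alpha-actinin (evm.TU.Contig117.164, Contig117 positions 3267422 to 3293613, plus strand), the cross-linker of the Z-disc, had room temperature values that nearly coincided, at 1935, 1941 and 1979 FPKM. At low temperature it stood at 1706, 2373 and 1388 FPKM, and at high temperature at 1400, 1266 and 3140. The means of the 3 groups were 1952, 1822 and 1935 FPKM for room, low and high, while the coefficient of variation was 1.22% at room, 27.6% at low and 54.0% at high temperature. High minus room temperature was -0.14 log2 (SE 0.385) at a limma adjusted p of 0.944. Without high temperature replicate 3 it was -0.55 (SE 0.279, limma adjusted p = 0.503). The other models with alpha-actinin in their name had 23 and 5 reads in all.

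Tropomodulin-1 (evm.TU.Contig980.3), the pointed-end cap, was at 282, 282 and 230 FPKM at room, 207, 319 and 170 at low and 185, 155 and 293 at high temperature. The groups overlapped, and the largest of its changes was -0.37 log2 (SE 0.334, limma adjusted p = 0.762) for high minus room temperature. Without high temperature replicate 3 it was -0.64 (SE 0.311, limma adjusted p = 0.49). Calponin-2 (evm.TU.Contig284.45), an actin-binding protein best known from smooth muscle, was at 550, 822 and 723 FPKM at room, 457, 1399 and 748 at low and 650, 577 and 642 at high temperature. Low temperature replicate 2, at 1399 FPKM, was far above the other 8 libraries, and low minus room temperature was 0.18 log2 (SE 0.391, limma adjusted p = 0.941).

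Both tested filamins, large cross-linkers of actin filaments, had higher means at high than at room temperature, with different reliability. Filamin-C (evm.TU.Contig109.76), which bears the name of the form found at the Z-disc of vertebrate muscle, was at 271, 275 and 278 FPKM at room, 391, 269 and 245 at low and 320, 330 and 340 at high temperature. The 3 high temperature values lay above all 3 room temperature values, but the log2 change was 0.26 (SE 0.267) with a limma adjusted p of 0.791, from a fit in which all groups share the spread. Filamin-A (evm.TU.Contig81.61) was at 26.3, 20.9 and 76.4 FPKM at room, 32.1, 42.0 and 102 at low and 61.2, 29.7 and 215 at high temperature. It was highest in replicate 3 of every group, and its residual SD of 1.11 log2 was larger than that of 98.5% of tested gene models. High minus room temperature was 1.05 log2 (SE 0.711, limma adjusted p = 0.675) with all libraries and 0.28 (SE 0.625, limma adjusted p = 0.891) without high temperature replicate 3.

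A cofilin (evm.TU.Contig405.4, Contig405 positions 93048 to 101417, plus strand), a protein that severs and depolymerises actin filaments, varied least within groups among the tested members. It was at 300, 253 and 273 FPKM at room temperature, 175, 186 and 213 at low temperature and 294, 308 and 306 at high temperature. All 3 low temperature libraries lay below the other 6. Its residual SD was 0.112 log2, and only 0.649% of tested gene models had a smaller one. Low minus room temperature was -0.53 log2 (SE 0.244), with an unadjusted limma p of 0.0546 and an adjusted p of 0.608. High minus low temperature was 0.66 log2 (SE 0.244, 95% interval 0.125 to 1.20), with an unadjusted p of 0.0202 and an adjusted p of 0.31. High temperature libraries differed from room temperature by 0.14 log2 (SE 0.244, limma adjusted p = 0.902). Without high temperature replicate 3 the high minus low value was 0.65 (SE 0.241, limma adjusted p = 0.377).

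The second cofilin (evm.TU.Contig326.53) was at 166, 196 and 249 FPKM at room, 127, 162 and 217 at low and 226, 254 and 164 at high temperature. Its low temperature mean was also the lowest of the 3, but its groups overlapped and its high minus low value was 0.36 log2 (SE 0.309, limma adjusted p = 0.733). Summed over both models, cofilin stood at 479 ± 38.4 FPKM at room, 360 ± 65.1 at low and 517 ± 45.9 at high temperature (mean ± SD, n = 3 each). The highest low temperature sum, 430 FPKM, lay below the lowest room temperature sum, 449 FPKM. As a share of the library FPKM sum these groups overlapped, with 0.0613% in low temperature replicate 1 and 0.0604% in room temperature replicate 3.

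Actin-interacting protein 1 (evm.TU.Contig423.27, Contig423 positions 514260 to 555614, minus strand) speeds the disassembly of filaments that cofilin has bound. It was at 27.1, 26.4 and 32.7 FPKM at room temperature, 15.2, 21.6 and 13.03 at low and 19.9, 25.7 and 22.6 at high temperature. Every low and every high temperature library lay below the lowest of the room temperature libraries. Low minus room temperature was -0.78 log2 (SE 0.258, 95% interval -1.35 to -0.21), with an unadjusted limma p of 0.0118 and an adjusted p of 0.404, and high minus room temperature was -0.33 (SE 0.258, limma adjusted p = 0.722). The model spans a lipoxygenase model on the same strand that was at a mean of 0.271 FPKM, so few of the reads there were assigned to the neighbour.

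**Figure D4:**
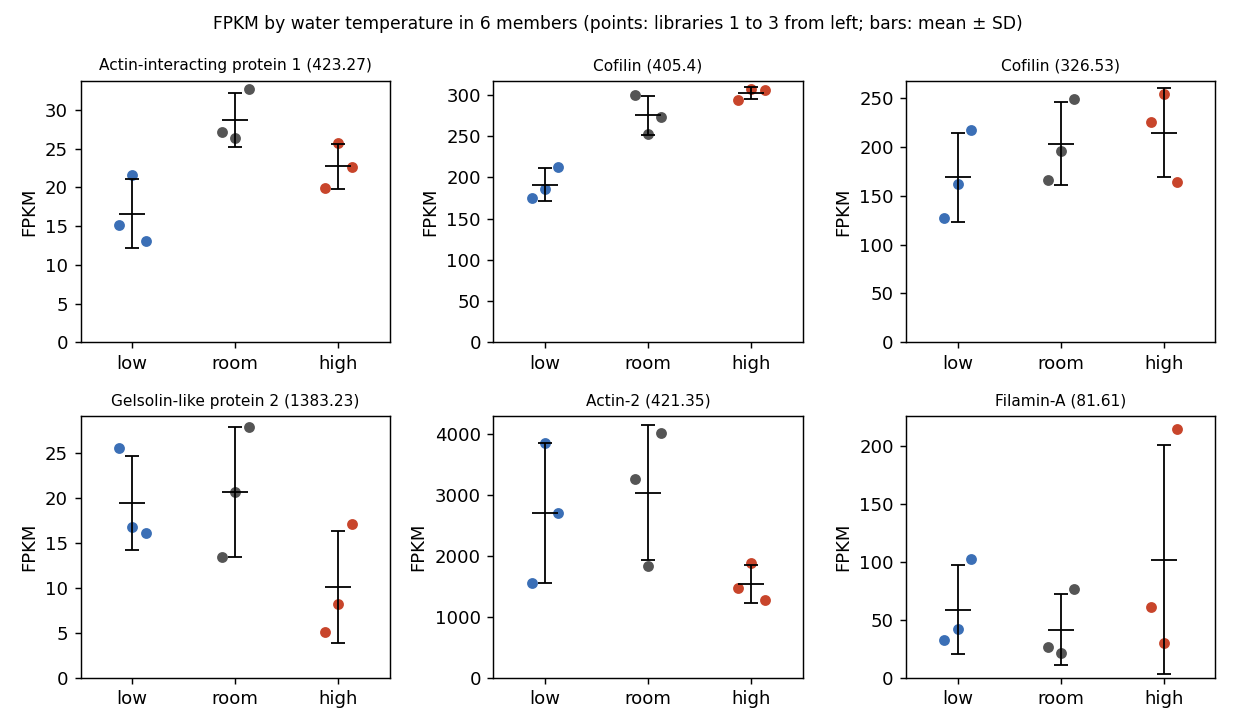
FPKM by water temperature for actin-interacting protein 1, both cofilins, a gelsolin-like protein, Actin-2 and filamin-A, one panel each with its own axis from 0. Points are libraries 1 to 3 from left to right and bars are the mean ± SD. The low temperature points of actin-interacting protein 1 and of the first cofilin lie under those at room temperature, whereas filamin-A is highest in replicate 3 of each group, at 215 FPKM in high temperature replicate 3.

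Gelsolins sever filaments in the presence of calcium and cap the barbed ends. A gelsolin-like protein 2 (evm.TU.Contig1383.23, Contig1383 positions 479965 to 496668, minus strand) was at 13.5, 20.7 and 27.9 FPKM at room, 25.5, 16.8 and 16.1 at low and 5.11, 8.19 and 17.1 at high temperature. High temperature replicate 3 overlapped both other groups, and the other 2 high temperature libraries lay below all of them. High minus room temperature was -1.05 log2 (SE 0.408), with an unadjusted limma p of 0.0258 and an adjusted p of 0.452, and high minus low was -0.997 (SE 0.408), with an unadjusted p of 0.0328 and an adjusted p of 0.367. Without high temperature replicate 3 these became -1.48 (SE 0.359, limma adjusted p = 0.293) and -1.42 (SE 0.359, limma adjusted p = 0.22).

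This model is one of 5 gelsolin models within 109 kb of Contig1383, 3 of them tested. A second gelsolin-like protein 2 (evm.TU.Contig1383.27) was at 19.5, 18.9 and 27.4 FPKM at room, 21.2, 23.1 and 17.2 at low and 25.0, 28.8 and 20.3 at high temperature, with high minus room at 0.17 log2 (SE 0.258, limma adjusted p = 0.878). The third tested one (evm.TU.Contig1383.24) ranged from 1.32 to 7.34 FPKM, with high minus room at 0.48 log2 (SE 0.426, limma adjusted p = 0.756). Neither of these had its lowest mean at high temperature, and the difference between the neighbours was not tested. Reads that match several of these models cannot be placed with certainty, which makes each value uncertain. How alike their sequences are was not measured.

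Profilin binds actin monomers and feeds them to growing barbed ends. Neighbouring profilin models on Contig791, within 12.9 kb, had nearly the same mean, 86.7 and 86.1 FPKM. The first (evm.TU.Contig791.26) was at 91.9, 81.3 and 94.99 FPKM at room, 79.2, 97.5 and 67.2 at low and 84.7, 113 and 70.1 at high temperature. The second (evm.TU.Contig791.27) was at 82.0, 66.1 and 125 FPKM at room, 55.2, 102 and 52.9 at low and 85.7, 66.2 and 141 at high temperature. In high temperature replicates 2 and 3 the neighbours took opposite orders, the first being higher in replicate 2 and the second in replicate 3. Neither passed the test in any comparison, with the lowest adjusted limma p at 0.711, but the 95% interval of the second for high minus low temperature, -0.37 to 1.31 log2, reaches beyond a 2-fold change.

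The Arp2/3 complex starts branched actin networks, a non-muscle use of actin, and its 8 gene models (7 tested) were far less abundant than the sarcomere proteins. The subunit 1A model (evm.TU.Contig126.46) was at 21.7, 18.8 and 40.4 FPKM at room, 27.4, 43.2 and 49.1 at low and 23.6, 33.2 and 27.0 at high temperature, with low minus room at 0.59 log2 (SE 0.339, limma adjusted p = 0.694). The groups overlapped. Subunit 4 (evm.TU.Contig109.106) was at 6.84, 5.94 and 10.01 FPKM at room, 7.75, 10.2 and 10.9 at low and 10.9, 11.7 and 11.2 at high temperature. Its high temperature values lay above all those of both other groups, the gap to the low temperature group being under 0.1 FPKM, and high minus room was 0.54 log2 (SE 0.251, limma adjusted p = 0.535). Actin-related protein 10 (evm.TU.Contig326.85), known from vertebrates as part of the dynactin complex, was at 12.8, 11.7 and 12.2 FPKM at room, 8.72, 10.2 and 10.3 at low and 8.78, 8.74 and 20.3 at high temperature. All its low temperature values were below those at room temperature (log2 -0.30, SE 0.31, limma adjusted p = 0.872). High minus room temperature was -0.06 log2 (SE 0.31, limma adjusted p = 0.97), and -0.44 (SE 0.224, limma adjusted p = 0.507) without high temperature replicate 3. The 14 actin-related proteins together summed to 104 ± 23.9, 119 ± 21.0 and 110 ± 13.7 FPKM at room, low and high temperature (mean ± SD, n = 3 each).

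**Figure D5:**
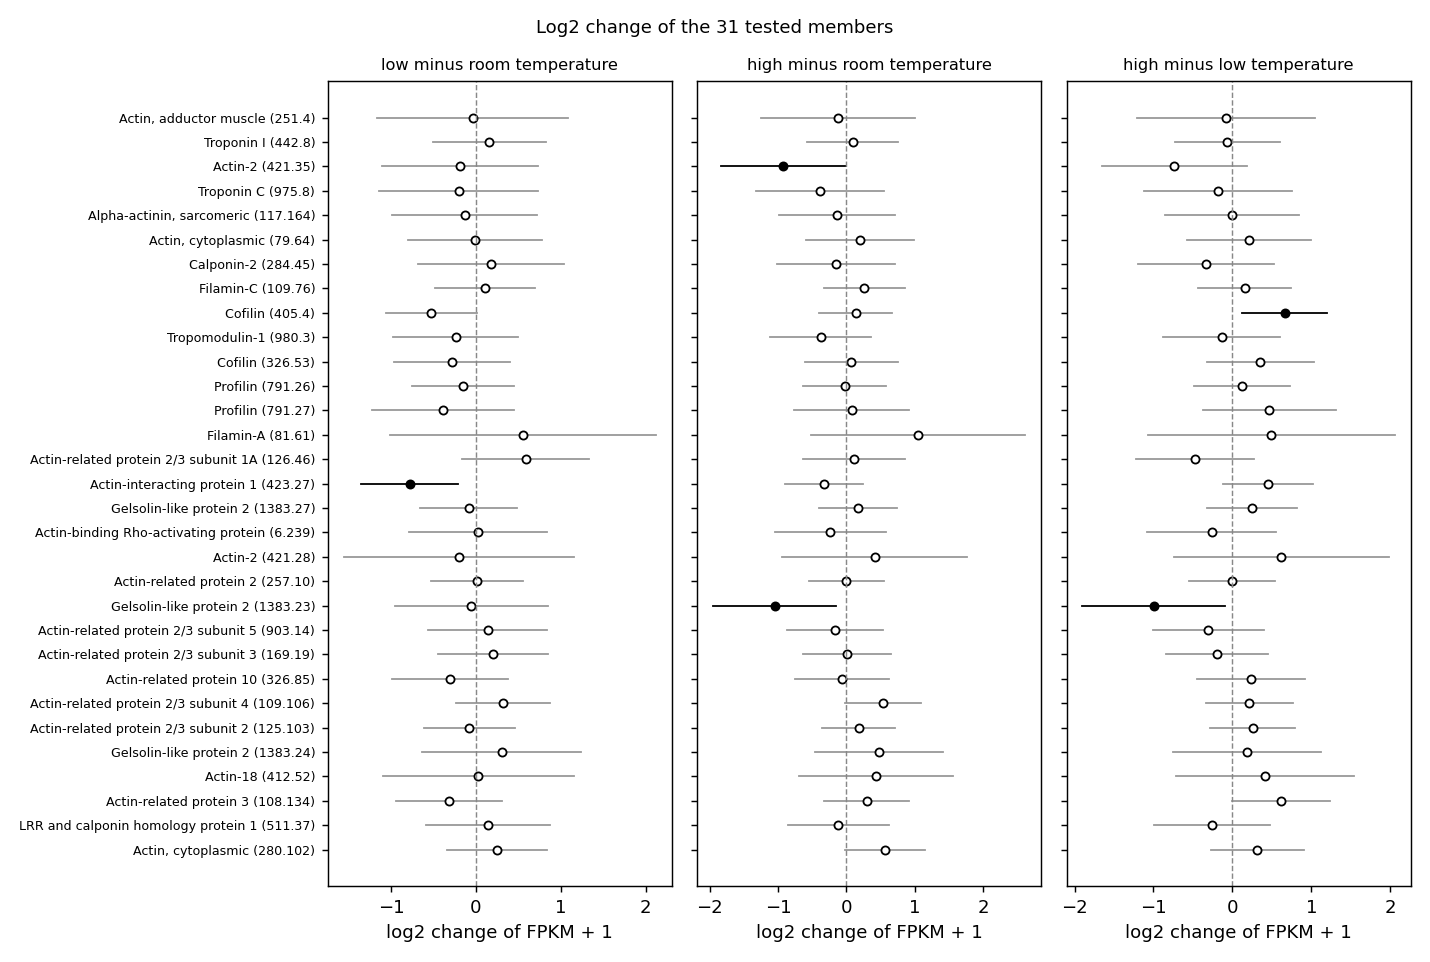
Log2 change of FPKM + 1 of the 31 tested gene models in the 3 comparisons, ordered by abundance from the top, with 95% intervals from the limma fit. Filled points have an unadjusted p under 0.05, and none passed after adjustment. The widest intervals belong to filamin-A, whose residual SD was 1.11.

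For low against room temperature, 0 of the 31 tested gene models were called at an adjusted limma p under 0.05, where 0.151% of all 8624 tested gene models were called. At an unadjusted p under 0.05 there were 0 higher and 1 lower, against 3.35% higher and 4.81% lower among all tested. The groups did not overlap in 0 higher and 3 lower models (the cofilin of Contig405, actin-interacting protein 1 and actin-related protein 10), against 6.53% and 8.74% of all tested gene models. Of these, only actin-interacting protein 1 kept the groups apart as a share of the library FPKM sum. The median log2 change was -0.04 for the set and -0.04 for all tested gene models. In summed FPKM, cilia markers were lower, and digestive gland markers higher, in every low than in every room temperature library. Neither held as a share of the library FPKM sum.

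For high against room temperature, 0 of 31 were called and 0.0% of all tested gene models, with limma, and limma-voom on the reads called 0 as well. At an unadjusted p under 0.05, 0 were higher and 2 lower (Actin-2 and a gelsolin-like protein 2), against 4.7% and 4.87% of all tested. Groups without overlap numbered 3 higher (filamin-C, Arp2/3 subunit 4 and the minor cytoplasmic actin) and 1 lower (actin-interacting protein 1), against 7.54% and 8.97%. Each of these models had overlapping groups as a share of the library FPKM sum. The median was 0.07 log2 for the set and -0.03 for all tested. In summed FPKM, cilia and gonad markers were lower in every high than in every room temperature library. Neither held as a share of the library FPKM sum.

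For high against low temperature, 0 of 31 were called by limma, against 0.162% of all tested. At an unadjusted p under 0.05, 1 was higher (the cofilin of Contig405) and 1 lower (a gelsolin-like protein 2), against 6.42% and 5.45%. The groups did not overlap in 2 higher (the cofilin of Contig405 and Arp2/3 subunit 4) and 0 lower models, against 8.75% and 8.45%. As a share of the library FPKM sum, the groups of each of these models overlapped. The median was 0.16 log2 for the set and 0.01 for all tested, and without high temperature replicate 3 it was 0.01 for the set and -0.02 for all tested. These shares of the set, of 31 models each, lay near those of all tested gene models. The comparisons share libraries, so their counts are not independent.

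A call that failed does not show that the levels were equal. The 95% interval lay wholly within a 2-fold change for 19 of 31 models between low and room, 18 of 31 between high and room and 14 of 31 between high and low temperature. The median residual SD of the set, 0.4 log2, was close to that of all tested gene models, 0.381. Among the 12 most abundant models the room temperature libraries had the smallest coefficient of variation in 8, the high temperature libraries in 3 and the low temperature libraries in 1, with medians of 11.6%, 23.4% and 26.8%. In deposited FPKM, high temperature replicate 3 was the highest of the 9 libraries in 10 of the 31 tested models and in 5 of the 12 most abundant. These counts by library and by coefficient of variation were not made over all tested gene models, so they describe no trait particular to the set.

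Other genes of the sarcomere and of actin binding were listed by name outside the set: 76 models, 45 of them tested. None of the 45 was called in any comparison, where 0.151%, 0.0% and 0.162% of all tested gene models were called. The counts at an unadjusted limma p under 0.05 were 1 higher and 1 lower for low against room, 0 and 0 for high against room, and 2 and 2 for high against low temperature. In the same order, the shares of all tested gene models were 3.35% and 4.81%, 4.7% and 4.87%, and 6.42% and 5.45%. The thick filament names (23 models, 12 tested) had a median log2 change of 0.11 for low and 0.16 for high against room temperature, the Z-disc and LIM names (12 models, 10 tested) 0.01 and -0.24, the filament turnover names (24 models, 13 tested) -0.11 and -0.07, and the attachment names (17 models, 10 tested) 0.20 and 0.05. The 3 most abundant were the myosin regulatory light chain A named for smooth adductor muscle at a mean of 43754 FPKM, which helps switch scallop myosin, a myosin essential light chain at 16902 FPKM and paramyosin, the core protein of molluscan thick filaments, at 3258 FPKM. Their high temperature replicate 3 values were 78735, 28850 and 6460 FPKM, each the highest of the 9 libraries, like those of adductor muscle actin, troponin I, troponin C and alpha-actinin.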

How the data were processed

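RNA sequencing libraries of adductor muscle were deposited by the authors as a table of FPKM per gene model, per the file headers, with contig positions and protein names. Alignment and counting tools in the submitters' processing notes are HISAT2 2.0.4 and HTSeq 0.9.1, and neither a genome build nor a strand setting is stated there. FPKM times gene length gave whole reads within 3.66e-08 of a read, and the divisor followed a median-of-ratios size factor, so the deposited FPKM already carry a scaling between libraries. log2(FPKM + 1), which understates changes of low genes, was tested with limma 3.58.1 (R 4.3.3) over the 8624 models whose mean FPKM reached 1. All 9 libraries entered a single fit, with eBayes trend and Benjamini-Hochberg adjustment over all tested models, called at 0.05. Members matched the protein name alone, and 90 would match if recorded domains were searched as well.

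Members and lists were chosen with earlier results of these data known. Pathway names were matched as whole words. Values are given for the 12 most abundant members, the most abundant of each family, any called member and, per comparison and direction, up to 4 of lowest p under 0.05, 16 in all. Another 5 tested members were named after their values were seen. The fit was also run on simulated data for low minus room temperature, with genes drawn independently at the real means and spread. Among genes above the median abundance, it recovered 16% of changes of 2-fold, 84% of 4-fold and 92% of 8-fold. Of its calls, 5.45% were false. Most changes of 2-fold were thus missed in that simulation. Recovery depends on the number of genes set as changed, here 200, and the other comparisons were not simulated. Figures used matplotlib 3.10.9.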

Additional observations from a re-analysis of the deposited data

How the results depend on the processing

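No member was called under any of the 19 alternative settings or when domain matches were counted as members, and the lowest adjusted p of a member under any of them was 0.218. Member medians moved by less than the 0.184 log2 SD between replicates. The medians were themselves smaller than that SD, so this does not show that they were stable. They ran from -0.17 to 0.114 for low minus room, -0.0637 to 0.148 for high minus room and 0.000416 to 0.176 for high minus low. Genes called over all gene models were less stable. For low minus room temperature, called at 13 in the analysis reported, there were 0 with no filter, 8 at a minimum mean FPKM of 5, 7 scaled to total reads, 8 with limma-voom on the reads, 2 without high and low temperature replicate 3 together, and 0 to 12 with a library left out. Omitting low temperature replicate 1 or 3 left 0, low temperature replicate 2 left 5, room temperature replicate 1 left 6, room temperature replicate 3 left 7 and high temperature replicate 3 left 8. For high minus low there were 4 with no filter, 1 without those replicates together and 6 to 19 with a library left out (6 when low temperature replicate 2 or 3 was omitted, 9 for low temperature replicate 1), against 14. For high minus room, 0 to 2 were called with a library left out (2 for room temperature replicate 1 or high temperature replicate 2, 1 for room temperature replicate 3), against 0. The causes were not tested. With the replicate block the counts were 10, 0 and 18 for low minus room, high minus room and high minus low, with 0 members called. Same-numbered libraries correlated at -0.103 to 0.242 in their deviations from the group means (9 pairs), so the numbers were not taken to pair them.

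Of 63 log2 changes of named members, 27 changed sign under some setting. The largest of these was 0.496 in size and the lowest unadjusted p among them in limma was 0.417. With other scalings, low minus room became 0.00932 (total reads) and 0.0547 (upper quartile) for adductor muscle actin, 0.0404 and 0.0858 for cytoplasmic actin (Contig79), and, at the upper quartile, 0.00701 and 0.0353 for the gelsolin-like models Contig1383.27 and Contig1383.23. High minus room became 0.0312 and 0.00722 for profilin Contig791.26. High minus low became 0.00157 (total reads) and 0.0177 (limma-voom) for alpha-actinin. Without high and low temperature replicate 3 together, low minus room was 0.0442 for alpha-actinin and 0.0301 and 0.0604 for the same gelsolins, high minus room was -0.0739 for troponin I and 0.133 and -0.218 for the profilins Contig791.26 and Contig791.27, and high minus low was -0.099 for actin-related protein 10.

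Leaving out one library at a time, low minus room ranged from -0.24 to 0.336 for adductor muscle actin, -0.517 to 0.163 for Actin-2, -0.368 to 0.0298 for troponin C, -0.343 to 0.0442 for alpha-actinin, -0.268 to 0.256 for cytoplasmic actin, -0.237 to 0.57 for calponin-2, -0.0974 to 0.239 for filamin-C, and -0.177 to 0.0813 and -0.32 to 0.18 for the gelsolins. High minus room ranged from -0.671 to 0.25 for adductor muscle actin, -0.0739 to 0.24 for troponin I, -0.551 to 0.103 for alpha-actinin, -0.061 to 0.464 for cytoplasmic actin, -0.0634 to 0.254 for cofilin Contig326.53, -0.209 to 0.133 and -0.218 to 0.33 for the profilins, -0.0988 to 0.435 for Arp2/3 subunit 1A and -0.437 to 0.128 for actin-related protein 10. High minus low ranged from -0.631 to 0.29 for adductor muscle actin, -0.231 to 0.0831 for troponin I, -0.669 to 0.082 for troponin C, -0.417 to 0.238 for alpha-actinin, -0.717 to 0.0901 for calponin-2, -0.399 to 0.118 for tropomodulin-1, -0.0602 to 0.281 for profilin Contig791.26, -0.272 to 1.13 for filamin-A and -0.135 to 0.43 for actin-related protein 10. The cofilin of Contig405 (high minus low, 0.6 to 0.742), actin-interacting protein 1 (low minus room, -0.974 to -0.63), gelsolin-like Contig1383.23 (high minus room, -1.48 to -0.693) and Actin-2 (high minus room, -1.25 to -0.687) kept their sign under every setting, with adjusted p-values of 0.275 to 0.668, 0.308 to 1.0, 0.233 to 0.848 and 0.461 to 0.848.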
